A study of Mus musculus with 12 samples.

Results

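The receptor tyrosine kinase gene Kit and 9 genes that ERK signalling switches on, most of which feed back on it, were followed in 6 mouse cell lines derived from tumours. The 10 genes are Kit, Spry2, Spry4, Etv4, Etv5, Dusp4, Dusp5, Dusp6, Egr1 and Phlda1, out of 17711 gene symbols on the array, and every probe annotated to them was used, which gave 16 probes of 29976 with a single symbol. The genes were picked because several were low in the third line with constitutively active STAT3. Values in that line are therefore described without a test, and the same holds for the comparison of the genotypes over all lines.

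The lines fall into 3 with wild-type STAT3, called wild-type lines 1 to 3, and 3 with constitutively active STAT3, called active lines 1 to 3. STAT3 relays signals from cytokine receptors to the nucleus as a transcription factor. All lines were grown untreated in RPMI medium with foetal calf serum, and total RNA of each was hybridised to 2 Illumina bead arrays, 12 in all. The labels name neither the tissue of the tumours, nor the alleles and promoter behind the STAT3 forms, nor whether the paired arrays of each line are separate cultures. Tests that use single arrays as replicates may thus see technical spread alone.

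Receptor tyrosine kinases such as Kit, the receptor for stem cell factor, act through RAS, RAF and MEK to phosphorylate ERK. Active ERK enters the nucleus and induces immediate early genes and ETS transcription factors of the PEA3 group. It also induces its own brakes, among them Sprouty proteins, which act upstream near RAS, and dual-specificity phosphatases, which take the phosphates off MAP kinases. The mRNA levels of these brakes are widely read as a measure of ERK output. ERK phosphorylation itself was not measured here.

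The number of probes detected ranged from 11002 to 12798 of 46632, and replicate arrays correlated at 0.993 to 0.998 (Pearson). Levels are quantile-normalised log2 signals, on which 1 unit is a doubling, and 7306 genes were tested. Keratins 8 and 18, filaments of simple epithelia, were bright in every line, at 13.59 to 14.00 for Krt8 and 13.44 to 13.82 for Krt18, and 7 of 9 epithelial genes were detected on all arrays. Epcam, an epithelial adhesion molecule, was detected on no array. Kit is also known from mast cells and melanocytes, and 11 of 14 genes of those cells were detected on no array, the proteases Cpa3 and Mcpt4 and the pigment enzymes Tyr and Dct among them. Their transcription factor Mitf was detected on all arrays, at 7.19 to 8.12. The melanocyte antigen Mlana was detected on 8 arrays. It was undetected in active line 3 (5.27) and wild-type line 1 (5.68), so these lines have no measured order. The summed signal of this list ranged from 9.17 to 9.84 on the log2 scale and was 9.39 in active line 3. Such sums, here and below, include the background readings of undetected genes. Stat3 itself read 12.42, 12.80 and 12.76 in wild-type lines 1 to 3 and 12.74, 12.27 and 11.50 in active lines 1 to 3. It was lowest in active line 3, 2.01-fold under the mean of active lines 1 and 2 (SE 0.09 on the log2 scale, limma adjusted p = 4.09e-06), and transcripts of the active form cannot be told from the endogenous ones.

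The promoters searched differ in the letters they hold. The 4 shown stand for the receptor, an ETS factor and the phosphatase genes whose levels parted in active line 3. Windows of 300 bases, from 250 before the annotated start to 50 after it, were taken from RefSeq on GRCm38.p6. They cover 5 of the 10 genes, 7 windows in all. These genes were Kit, Spry2, Etv5, Dusp5 and Dusp6. The promoters of Spry4, Etv4, Dusp4, Egr1 and Phlda1 were not searched. They are printed 5′ to 3′ on the strand of the gene in lower case, with matches to any of 6 motifs on either strand in capitals. The motifs were the CArG box bound by SRF, the ETS motifs CGGAAG and AGGAAG, TNAATGNA, which covers the octamer bound by the repressor Capicua, the AP-1 motif TGANTCA and the STAT motif TTCNNNGAA.
Kit, chr5:75574737-75575036, plus strand: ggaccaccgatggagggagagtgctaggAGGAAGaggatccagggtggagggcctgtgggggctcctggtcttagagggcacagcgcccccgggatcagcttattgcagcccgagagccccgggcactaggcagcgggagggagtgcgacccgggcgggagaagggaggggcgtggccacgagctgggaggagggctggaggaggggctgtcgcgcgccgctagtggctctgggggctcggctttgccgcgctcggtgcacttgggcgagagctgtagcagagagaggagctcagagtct
Etv5, second start, chr16:22438319-22438618, minus strand: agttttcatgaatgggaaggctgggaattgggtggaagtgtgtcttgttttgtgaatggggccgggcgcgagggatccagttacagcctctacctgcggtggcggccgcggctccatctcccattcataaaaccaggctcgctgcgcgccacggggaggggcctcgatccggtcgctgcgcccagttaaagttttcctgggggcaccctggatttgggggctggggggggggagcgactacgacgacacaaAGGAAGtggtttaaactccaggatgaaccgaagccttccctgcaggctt
Dusp5, chr19:53528895-53529194, plus strand: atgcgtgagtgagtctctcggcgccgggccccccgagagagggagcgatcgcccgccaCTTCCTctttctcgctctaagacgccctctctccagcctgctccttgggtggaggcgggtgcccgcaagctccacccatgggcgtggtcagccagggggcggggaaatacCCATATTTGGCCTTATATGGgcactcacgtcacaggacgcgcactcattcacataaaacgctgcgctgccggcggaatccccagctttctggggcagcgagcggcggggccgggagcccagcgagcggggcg
Dusp6, chr10:99262981-99263280, plus strand: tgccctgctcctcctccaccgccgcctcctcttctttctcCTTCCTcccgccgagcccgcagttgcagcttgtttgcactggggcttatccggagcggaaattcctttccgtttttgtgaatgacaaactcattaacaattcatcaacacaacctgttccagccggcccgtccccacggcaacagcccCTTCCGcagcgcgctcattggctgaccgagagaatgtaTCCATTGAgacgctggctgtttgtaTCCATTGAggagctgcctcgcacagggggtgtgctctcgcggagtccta

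Dusp5 held a pair of adjoining CArG boxes, at -82 and -72 from the start, and 1 ETS match at -192. A CArG box was found in 1.63% of 32851 such windows of all genes, and 2 or more in 0.0183%. The Dusp6 window had TCCATTGA, the reverse strand of TNAATGNA, at -24 and at 2, where 1.54% of all windows hold 2 or more matches, with ETS matches at -210 and -62. Kit and the second start of Etv5 each held only AGGAAG, which is in 35.4% of all windows. The first start of Etv5 held no match to any of the motifs. CGGAAG was in 16.9%, TNAATGNA in 11.7%, the AP-1 motif in 7.81% and the STAT motif in 8.3%, and neither of the last 2 was in any of the 7 windows. A match is a run of letters and no evidence that a factor binds.

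**Figure D1:**
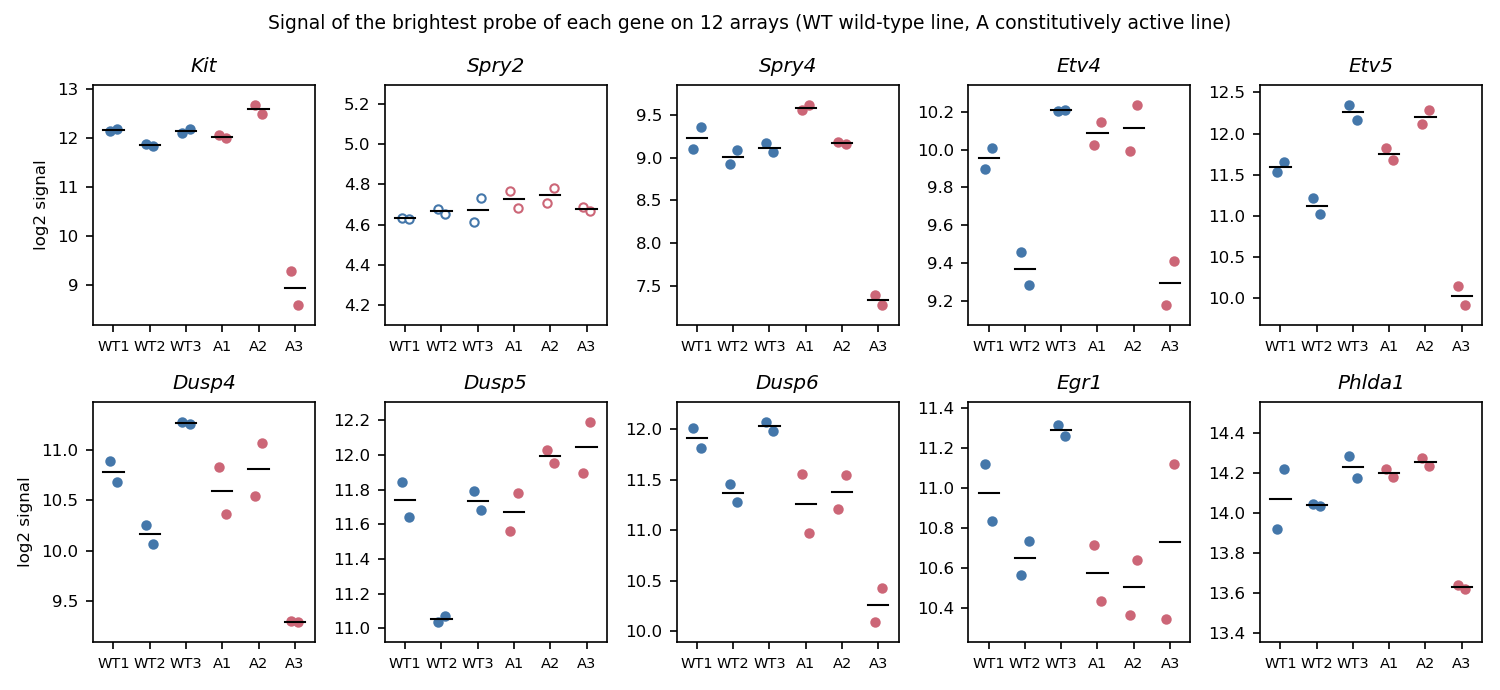
Normalised log2 signal of the brightest probe of each gene on every array, with 1 panel per gene and its own vertical axis; WT1 to WT3 are the wild-type lines and A1 to A3 the active lines, points are arrays, open where the probe was not detected, and short bars are means of 2 arrays. Kit, Spry4, Etv5, Dusp4, Dusp6 and Phlda1 had both arrays of A3 below all other arrays, whereas Dusp5 and Egr1 did not.

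Kit was bright in 5 lines and far dimmer in active line 3. Its arrays read 12.14 and 12.18 in wild-type line 1, 11.88 and 11.84 in wild-type line 2 and 12.10 and 12.18 in wild-type line 3. The active lines read 12.06 and 11.99 for line 1, 12.68 and 12.48 for line 2, and 9.28 and 8.58 for line 3. Before normalisation the raw signals of active line 3 were 631.6 and 402.2 units, against 2124.2 to 8396.8 on the other 10 arrays. The difference of active line 3 from the mean of active lines 1 and 2 was -3.37 log2 units (10.3-fold lower), its gap to the next lowest line was 2.93, and its replicate arrays differed more than those of any other line (SD 0.50 against 0.02 to 0.14). Kit remained detected on both arrays of active line 3.

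Among the other lines the means of Kit ran from 11.86 in wild-type line 2 to 12.58 in active line 2. The wild-type lines did not pass the test of a difference among them (limma F test, adjusted p = 0.265), and the largest gap, line 2 under line 1, was -0.30 (SE 0.17, adjusted p = 0.202). Active line 2 was higher than active line 1 by 0.56 (SE 0.17, 1.47-fold, limma adjusted p = 0.0304). That call was lost when the first array of active line 1, the second array of active line 1 or the first array of active line 2 was left out (adjusted p 0.0789, 0.127 and 0.151), and with no filter on dim probes (0.0862). The other 2 probes annotated to Kit gave almost no signal: one was detected on 1 array, which was of active line 2, and the other on no array. The Kit result thus rests on a single probe.

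The Sprouty genes encode membrane-linked inhibitors of receptor tyrosine kinase signalling, and only Spry4 was measurable. Spry2 has 1 probe, which was detected on none of the 12 arrays and read 4.61 to 4.78, so no level or difference can be given for it. Spry4 read 9.10 and 9.36 in wild-type line 1, 8.93 and 9.09 in line 2 and 9.17 and 9.06 in line 3, and the wild-type lines overlapped (F test of limma, adjusted p = 0.223). In the active lines it read 9.55 and 9.62 in line 1, 9.19 and 9.16 in line 2, and 7.39 and 7.28 in line 3. Both arrays of active line 3 lay below every other array (-2.04, or 4.12-fold lower, against the mean of the other active lines), 1.67 under the next lowest line. The size of this difference depended on the processing: it was -1.42 with the deposited log2 values, -1.84 with an offset of 50 and -2.31 under median scaling. Active line 2 was lower than active line 1 by 0.41 (SE 0.11, 1.33-fold, limma adjusted p = 0.0123). The call was lost under median scaling (-0.16, adjusted p = 0.715) and without the second array of active line 1 or of active line 2 (adjusted p 0.0760 and 0.0530).

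Etv4 and Etv5 encode ETS activators of the PEA3 group. Etv5 read 11.53 and 11.65 in wild-type line 1, 11.22 and 11.03 in line 2 and 12.35 and 12.17 in line 3, and no arrays of different wild-type lines overlapped. It separated the wild-type lines most clearly of all 9 measured genes (limma F test, adjusted p = 3.61e-05). Line 3 exceeded line 2 by 1.14 (SE 0.12, 2.20-fold, limma adjusted p = 2.03e-05) and line 1 by 0.67 (adjusted p = 0.00137), and line 2 lay -0.47 from line 1 (adjusted p = 0.00931). The last call was lost without the second array of wild-type line 1 (0.0750) or of line 2 (0.0781). The active lines read 11.82 and 11.68 for line 1, 12.11 and 12.29 for line 2 and 10.14 and 9.91 for line 3. Active line 2 exceeded line 1 by 0.45 (SE 0.12, 1.37-fold, limma adjusted p = 0.0143), a call lost without the second array of line 1 (0.103) or of line 2 (0.0926). Active line 3 differed from the mean of the other active lines by -1.95 (3.86-fold lower) and lay 1.10 under the next lowest line. A second, dim Etv5 probe was detected on 3 arrays, none of them of active line 3 or wild-type line 2.

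Etv4 had a smaller span. Its arrays read 9.90 and 10.01, 9.46 and 9.28, and 10.21 and 10.21 in wild-type lines 1 to 3, and 10.02 and 10.15, 9.99 and 10.24, and 9.18 and 9.41 in active lines 1 to 3. Active line 3 differed from the mean of the other active lines by -0.81 (1.75-fold lower), but lay only 0.08 under wild-type line 2, and the arrays of those 2 lines overlapped. Wild-type line 3 exceeded line 2 by 0.84 (SE 0.11, 1.79-fold, limma adjusted p = 0.000177) and line 2 lay -0.58 from line 1 (adjusted p = 0.00222). Active lines 1 and 2 differed by 0.03, less than the spread between their arrays.

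**Figure D2:**
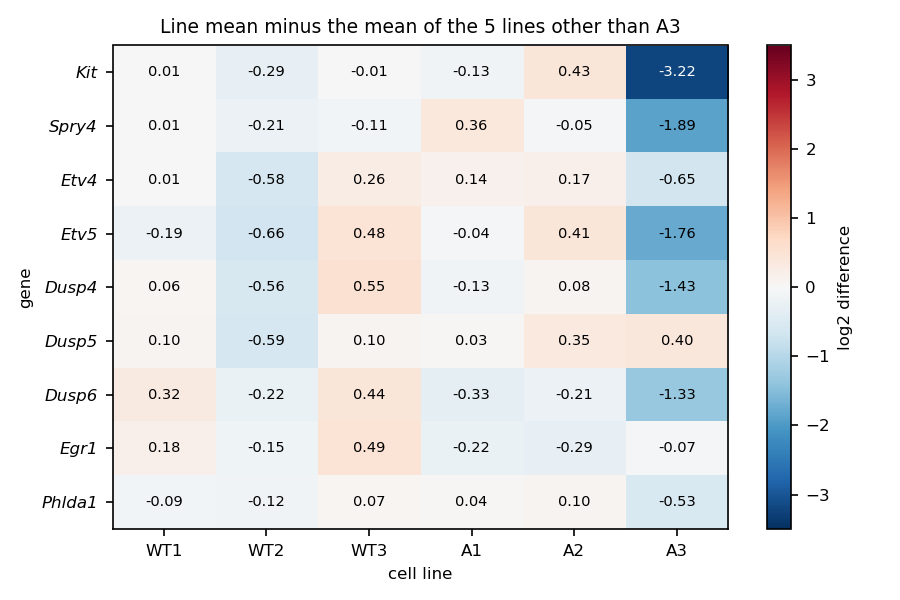
Line means of 9 genes (rows) in the 6 lines (columns), each shown as the log2 difference from the mean of the 5 lines other than A3, with the value printed in the cell; WT1 to WT3 are wild-type and A1 to A3 active. Active line 3 holds the deepest negative values, -3.22 for Kit and -1.89 for Spry4, and wild-type line 2 is below 0 for all 9 genes.

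Of the dual-specificity phosphatases, Dusp4 and Dusp6 were low in active line 3 and Dusp5 was not. Dusp6, a cytoplasmic phosphatase that prefers ERK, read 12.01 and 11.81, 11.46 and 11.28, and 12.07 and 11.98 in wild-type lines 1 to 3. In active lines 1 to 3 it read 11.55 and 10.97, 11.21 and 11.55, and 10.09 and 10.43. Against the mean of the other active lines, line 3 stood at -1.06 (2.09-fold lower), and it lay 1.00 under the next lowest line. Active lines 1 and 2 overlapped (0.12, limma adjusted p = 0.679).

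Dusp6 also differed among the wild-type lines (limma F test, adjusted p = 0.0229), where line 3 exceeded line 2 by 0.66 (SE 0.18, 1.58-fold, limma adjusted p = 0.0150). The F test was lost with no filter on dim probes (0.0711) and without either array of wild-type line 2 (0.0530 and 0.153) or of line 3 (0.0694 and 0.0515). The difference of line 3 from line 2 was lost without the second array of line 2 (0.0933) or either array of line 3 (0.0909 and 0.0514). Line 2 lay -0.54 from line 1 (limma adjusted p = 0.0389), a call lost without any one of the wild-type arrays (0.0553 to 0.193) and with no filter (0.0982). A second Dusp6 probe, detected on all 12 arrays, showed wider gaps with the same lowest lines: 9.30, 8.16 and 9.52 in wild-type lines 1 to 3, and 8.86, 9.31 and 7.42 in active lines 1 to 3. On it the difference of active line 3 from the mean of the other active lines was -1.66.

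Dusp4, a nuclear phosphatase of ERK and other MAP kinases, read 10.90 and 10.68, 10.26 and 10.06, and 11.28 and 11.26 in wild-type lines 1 to 3. Its levels were 10.83 and 10.36, 10.54 and 11.08, and 9.30 and 9.29 in active lines 1 to 3. Wild-type line 3 exceeded line 2 by 1.11 (SE 0.18, 2.16-fold, limma adjusted p = 0.000539), and line 2 lay -0.63 from line 1 (adjusted p = 0.0173). The latter call was lost without the first array of line 1 (0.115) or the second of line 2 (0.106), and with no filter on dim probes (0.0502). The difference of active line 3 from the mean of the other active lines, which overlapped each other, was -1.41 (2.66-fold lower). A second Dusp4 probe, detected on all 12 arrays, was also lowest in active line 3 (a difference of -1.12). Its gaps among the wild-type lines were narrower. It read 10.37, 10.21 and 10.73 in wild-type lines 1 to 3, and line 3 exceeded line 2 by 0.52. The remaining probe was detected on 4 arrays, none of them of active line 3.

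Dusp5, a nuclear phosphatase for ERK, did not share the low level of active line 3. It read 11.85 and 11.64, 11.03 and 11.07, and 11.79 and 11.68 in wild-type lines 1 to 3, and 11.56 and 11.78, 12.03 and 11.96, and 11.90 and 12.19 in active lines 1 to 3. Wild-type line 2 was its lowest line, -0.69 from line 1 (SE 0.12, limma adjusted p = 0.000852), and line 3 exceeded line 2 by 0.68 (1.61-fold, adjusted p = 0.000979). Active line 3 lay 0.21 (1.16-fold) above the mean of the other active lines, and its arrays overlapped those of active line 2.

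Egr1, an immediate early zinc finger transcription factor, was not low in active line 3 either. It read 11.12 and 10.83, 10.57 and 10.74, and 11.32 and 11.26 in wild-type lines 1 to 3, and 10.71 and 10.44, 10.37 and 10.64, and 10.34 and 11.12 in active lines 1 to 3. The arrays of active line 3 spanned the whole range of the active arrays, around a mean of 10.73 ± 0.55 (SD, n = 2 arrays). Its difference from the mean of the other active lines was 0.19, and it turned to -0.20 without the second array of active line 3 and was 0.58 without the first. Wild-type line 3 exceeded line 2 by 0.64 (SE 0.21, 1.55-fold, limma adjusted p = 0.0319), while the F test over the wild-type lines gave 0.0655. The pairwise call was lost without any one array of wild-type line 2 or line 3 (0.0662 to 0.136) and with no filter (0.0918), and the F test passed with the deposited log2 values (0.0317), under median scaling (0.00348) and with an offset of 50 (0.0412).

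Phlda1, a small pleckstrin homology domain protein induced by growth factors, had the narrowest range of line means of the 9 measured genes. It read 13.92 and 14.22 in wild-type line 1, 14.04 and 14.04 in line 2 and 14.29 and 14.17 in line 3 (limma F test, adjusted p = 0.248). The active lines read 14.22 and 14.18, 14.27 and 14.24, and 13.64 and 13.62. The difference of active line 3 from the mean of the other active lines was -0.60 (1.51-fold lower), and both of its arrays lay under all others.

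**Figure D3:**
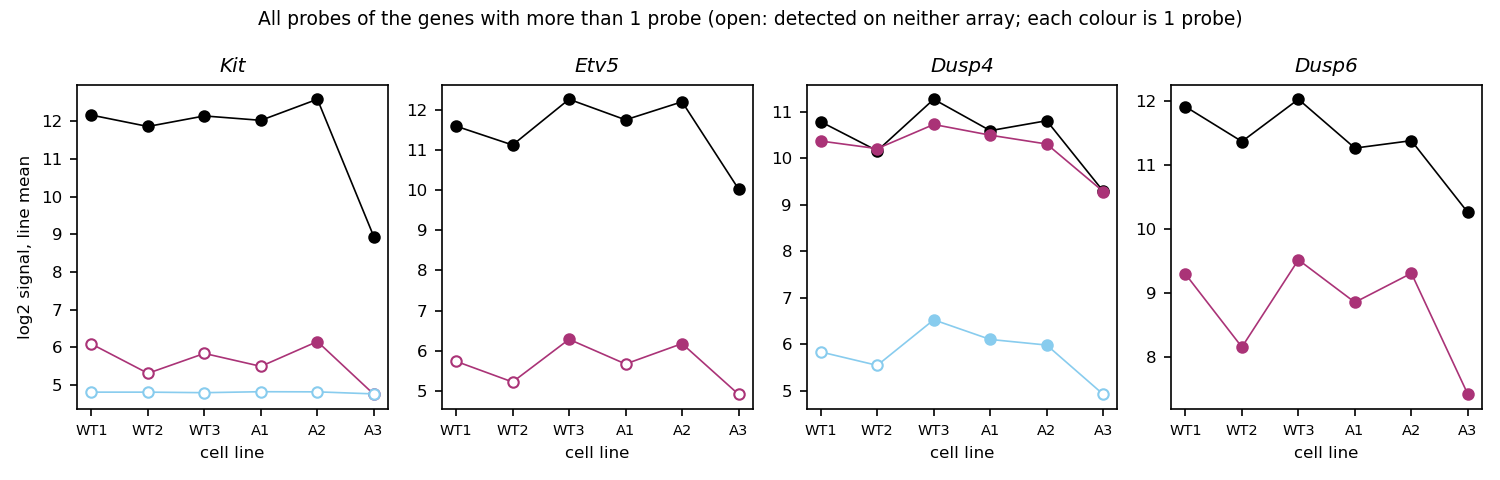
Line means of the log2 signal for the genes with several probes, with 1 coloured line per probe over the 6 cell lines; WT1 to WT3 are wild-type, A1 to A3 active, and open points mark lines where neither array detected the probe. The probes detected on all 12 arrays are lowest at A3 and, of the wild-type lines, at WT2. The dim probes are open at both of these lines and have no measured order there.

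As a group, 7 of 9 had their lowest line mean in active line 3, Dusp5 and Egr1 being the exceptions. Over all genes tested 22.6% did, and since the genes were picked on this line nothing is read from the count. Both arrays of active line 3 lay below the other 10 for 6 genes, against 13.4% of all genes, and 5 genes were over 1 log2 unit below active lines 1 and 2, against 4.5%. The median difference from active lines 1 and 2 was -1.06 over the 9 genes and 0.03 over all genes. Lines differed widely, and the F test over the wild-type lines passed for 3393 genes (46.4%). The test of active line 3 against active lines 1 and 2 passed for 3870 genes (53%). Under median scaling in place of quantile normalisation the median of all genes moved from 0.03 to -0.13, the share of calls that were lower went from 46.9% to 72.1%, and 6 of the 9 genes were lowest there. Markers of fibroblasts and endothelium were mostly absent, with 7 of 10 detected on no array, but Col1a1 was detected on both arrays of active line 3 (6.91) and on no other. That list's summed signal was 9.29 in active line 3 and 8.98 to 9.29 over all lines, and Col1a2 and Col3a1 were detected nowhere. Whether active line 3 holds fibroblasts or endothelial cells was not tested, nor was any part of the lower Stat3 level in the result. Fewer cells with a transcript and less transcript per cell cannot be told apart in RNA from a whole culture.

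The genes were picked on active line 3 and not on the wild-type lines, though with earlier results of these data known. As genes of a single pathway they also need not vary independently. Wild-type line 2 had the lowest wild-type mean for 9 of 9 genes, where 39.3% of all genes did. Both of its arrays lay below the other 4 wild-type arrays for 7 genes, Spry4 and Phlda1 being the exceptions, where 24.5% of all genes did. The F test over the wild-type lines passed for 5 genes, Etv4, Etv5, Dusp4, Dusp5 and Dusp6, against 46.4% of all genes, a share close to the background. Line 2 was lower than line 1 for the same 5 genes (18.2% of all genes) and lower than line 3 for those and Egr1 (19.1%). Line 3 and line 1 differed for Etv5 only (22.4%).

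The median of the 9 genes was -0.47 for line 2 against line 1 and 0.66 for line 3 against line 2, beside -0.02 and 0.00474 for all genes. These counts depend on scale. Median scaling shifted the medians of all genes to -0.20 and 0.22 and raised the share of all genes lowest in line 2 from 39.3% to 65.4%, with the 9 genes still lowest there. The share of calls that were lower then went from 53.7% to 66.0% for line 2 against line 1, and from 48.7% to 20.5% for line 3 against line 2. Leukocyte markers moved with this line: the lysozyme gene Lyz2 read 7.24 in line 2 and 4.67 to 4.75 elsewhere, and Cd74, the invariant chain, read 8.01 and 4.77 to 5.32. Both were detected only on the 2 arrays of line 2, while the defining markers Ptprc, Cd3e, Itgam and Adgre1 were detected on no array. The list's summed signal was 9.02 in line 2 and 7.32 in the lowest line, where none of its genes was detected and the sum is background alone. The part of these markers in the result was not tested.

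**Figure D4:**
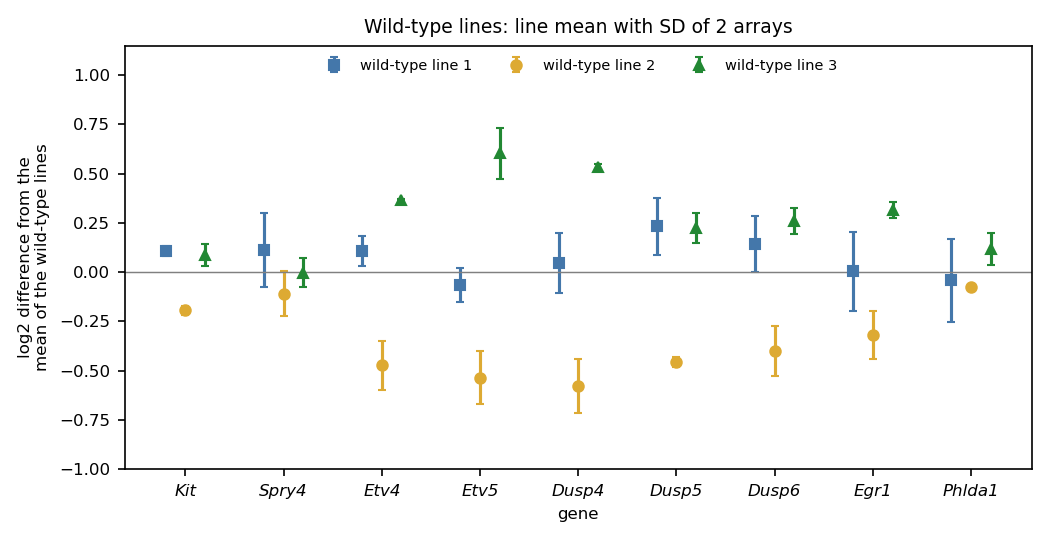
Mean log2 signal of each wild-type line minus the mean of the 3 wild-type lines for 9 genes, with the SD of 2 arrays as bars. The brightest probe of each gene is shown. Wild-type line 2 (circles) is the lowest for all 9 genes, and its distance from line 3 (triangles) is widest for Etv5 and Dusp4 (1.14 and 1.11). On second probes, not shown, this distance was 1.36 for Dusp6 and 0.52 for Dusp4.

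Between active lines 1 and 2, which were not used to pick the genes though earlier results were known, 3 of 9 differed. Kit and Etv5 were higher and Spry4 lower in line 2. Over all genes 14.8% were higher and 13.6% lower (28.3% in all), so the share is near the background. Median scaling moved the median of all genes from -0.03 to 0.20 in this comparison and the share of calls that were lower from 47.9% to 11.8%.

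The genotypes were then compared without active line 3, with the line as the replicate (3 wild-type, 2 active). None of the 9 genes passed (limma adjusted p 0.728 to 0.989), nor did any of 7306 genes (0%), and at an unadjusted p under 0.05 it was 0 of 9 genes and 523 of all (7.16%). Intervals show what 5 lines can resolve. The difference of active minus wild-type was 0.25 for Kit (95% interval -0.29 to 0.79), 0.26 for Spry4 (-0.17 to 0.69), 0.26 for Etv4 (-0.42 to 0.93) and 0.32 for Etv5 (-0.62 to 1.25). It was -0.45 for Dusp6 (-1.03 to 0.13), -0.04 for Dusp4 (-0.90 to 0.83) and 0.32 for Dusp5 (-0.35 to 1.00). The second Dusp6 probe did not share the negative direction of the brightest. That probe read 9.30, 8.16 and 9.52 in wild-type lines 1 to 3 and 8.86 and 9.31 in active lines 1 and 2. Egr1 gave -0.43 (-0.96 to 0.10) and was the only gene whose line means did not overlap between genotypes, where 25.8% of all genes did not, and Phlda1 gave 0.11 (-0.18 to 0.41).

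With active line 3 included the wild-type mean of Kit was 12.05 ± 0.17 and the active mean 11.18 ± 1.96 (SD, n = 3 lines each), and the spread of the active lines exceeded the difference of -0.87. The same contrast was -0.80 for Dusp6, -0.51 for Dusp4, -0.42 for Spry4, -0.33 for Etv5 and -0.01 for Etv4. Line means of the genotypes overlapped for all 9 genes, while 12.4% of all genes did not overlap. No gene of 7306 passed at an adjusted p of 0.05 (0%), and 410 (5.61%) had an unadjusted p under 0.05.

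Other genes of the pathway were taken as 4 lists that hold none of the 10, put together with earlier results of these data known. In active line 3 against active lines 1 and 2, where 24.9% of all genes were lower and 28.1% higher, the lists divided as follows. Of 10 tested receptors and ligands 3 fell, 3 rose and 4 did not pass, and under median scaling 3 were lower and 1 higher. Igf1r, the insulin-like growth factor receptor, fell by 1.04 (limma adjusted p = 2.27e-06). The fibroblast growth factor receptor Fgfr1 fell below detection, at least 1.42-fold lower than in active line 1 and at least 1.54-fold lower than in line 2 (limma adjusted p = 0.000258). Met, the receptor for hepatocyte growth factor, rose by 0.72 (adjusted p = 6.50e-05). A bound of this kind takes, for the dim line, whichever is larger on each array: the reading of the dim probe or the lowest reading of any detected probe.

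Wild-type line 2 was the lowest wild-type line for 7 of the 10 receptors and ligands, but not for the pair with the largest wild-type ranges. Egfr, the epidermal growth factor receptor, read 7.40, 9.11 and 8.46 in wild-type lines 1 to 3 (limma F test, adjusted p = 2.03e-06), highest in line 2. Fgfr2 read 9.24, 9.83 and 8.10 (adjusted p = 5.86e-05) and was likewise highest there.

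Of 8 tested genes of the RAS to ERK cascade 1 fell, 3 rose and 4 did not pass. The adaptor Gab1 fell by 0.34 (limma adjusted p = 0.00530). Ptpn11, which encodes the phosphatase SHP2 that relays receptor signals to RAS, was 0.45 higher (adjusted p = 0.000209), and the ERK-activated kinase gene Rps6ka3 0.59 higher (adjusted p = 0.00980). Rps6ka3 was detected on only 1 array each in active lines 1 and 2 (means 6.26 and 6.22). Its difference thus rests partly on undetected readings. Both of the last calls were lost under median scaling (0.298 and 0.192), under which 1 gene of the list was lower and none higher, the Ptpn11 call also with the mean of its probes (0.275), and the Rps6ka3 call without the second array of active line 3 (0.122). The RAF kinase gene Araf differed among the wild-type lines (limma F test, adjusted p = 0.00200).

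Among 15 tested inhibitors of the pathway 7 fell, 3 rose and 5 did not pass, and under median scaling 6 were lower and 1 higher. Il17rd, a membrane inhibitor of FGF signalling also called Sef, fell below detection in active line 3, at least 1.82-fold lower than in active line 1 and at least 1.45-fold than in line 2 (limma adjusted p = 5.46e-06). Nf1, the RAS GTPase-activating protein neurofibromin, fell by 1.02 (adjusted p = 5.51e-06). Dusp14 rose by 0.87 (adjusted p = 0.000130). Dusp8 ranged widely among the wild-type lines (F test, adjusted p = 0.00514) and lay 0.10 higher in active line 3 without passing.

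The 17 tested output and effector transcription factors and other targets split evenly, with 6 lower, 5 higher and 6 not passing. Under median scaling 6 were lower and 1 higher. Etv1, the remaining PEA3 group factor, fell below detection: it read 7.74 in active line 1, 8.04 in line 2 and 5.66 in line 3. That is at least 2.78-fold lower than active line 1 and at least 3.42-fold lower than line 2 (limma adjusted p = 5.14e-07). It also differed among the wild-type lines, at 7.85, 6.84 and 8.03 (F test, adjusted p = 0.000649), lowest in line 2 as Etv4 and Etv5 were.

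Egr2, a zinc finger factor of the Egr1 family, read 7.58, 5.15 and 7.08 in wild-type lines 1 to 3 and 5.50, 6.91 and 5.02 in active lines 1 to 3, and was undetected in wild-type line 2 and active lines 1 and 3. Active line 3 was at least 1.57-fold lower than active line 2, and its contrast with both other active lines passed (adjusted p = 0.000133), although active line 1 was undetected too. Trib1, a pseudokinase, fell by 1.11 (adjusted p = 2.37e-05). Klf2, a Krüppel-like factor downstream of ERK5, read 7.70, 6.82 and 8.10 in the wild-type lines (F test, adjusted p = 6.45e-05), again lowest in line 2. Over the 4 lists the medians in active line 3 were -0.13 for receptors and ligands, 0.11 for the cascade, -0.04 for inhibitors and -0.05 for outputs, beside 0.03 for all genes. Wild-type line 2 was the lowest wild-type line for 7 of 10, 2 of 8, 7 of 15 and 11 of 17 genes of these lists.

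**Figure D5:**
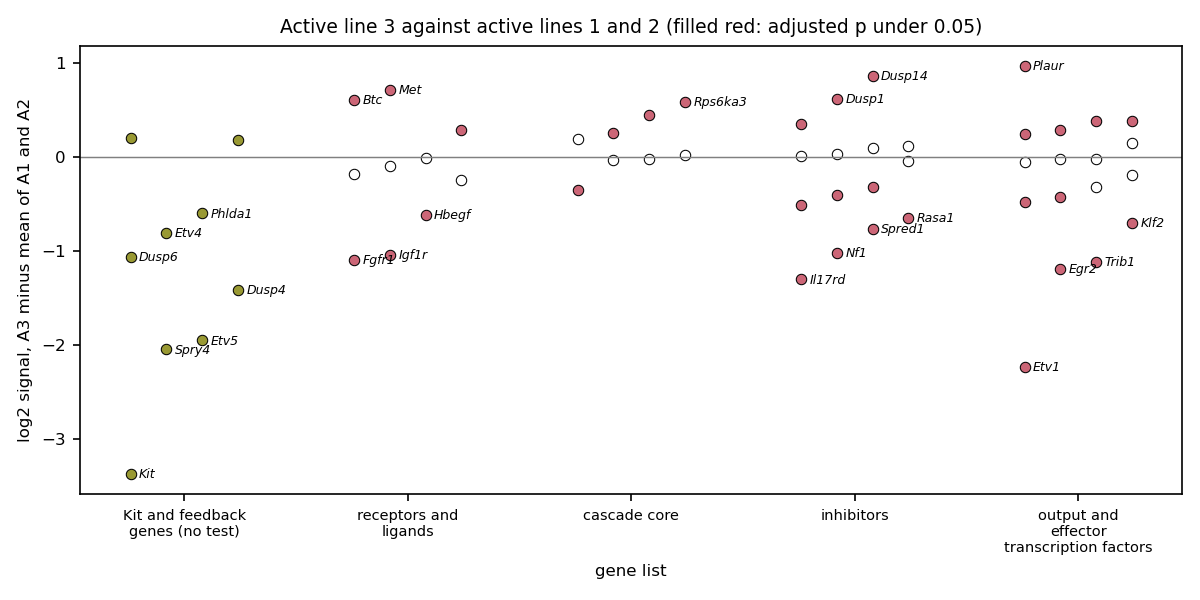
Log2 signal of active line 3 minus the mean of active lines 1 and 2 for each tested gene of Kit and its feedback genes and of 4 pathway lists; points are genes, filled red where the limma adjusted p is under 0.05, and the first group carries no test. Fgfr1, Il17rd, Etv1 and Egr2 were undetected in active line 3, so their points rest on readings not above background and are no measured size. Kit lies lowest at -3.37, and each of the 4 lists has genes on both sides of 0.

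Genes whose pattern over the 6 line means was most like that of Kit were Rdx (r = 0.996), Gatad2b (0.996), Ube2z (0.995), Rora (0.995) and Arhgap32 (0.992). Active line 3 carries much of this likeness, since over the other 5 lines the values were 0.876, 0.909, 0.948, 0.990 and 0.803. The other members ranked lower. Phlda1 came 83rd of the tested genes (0.957, and 0.66 without active line 3), Spry4 104th (0.952 and -0.02) and Etv5 223rd (0.916 and 0.73). Dusp4 came 323rd (0.885 and 0.49), Dusp6 426th (0.855 and 0.04), Etv4 858th (0.736 and 0.61) and Egr1 3126th (0.063 and -0.17). Dusp5 ran against Kit over 6 lines (-0.32) and with it over 5 (0.851). For Dusp6 the most alike were Ptk7 (0.989), Pwwp2b (0.988), L3mbtl3 (0.986), Arfgap3 (0.984) and Utrn (0.983), with 0.949 to 0.983 over 5 lines. Utrn was undetected in active line 3 (5.80), so its point there is no measured level. The line means of L3mbtl3 spanned only 6.97 to 7.37. Egr1 stood at 0.556 with Dusp6 over 6 lines and 0.952 over 5. These are descriptions over 6 and 5 points.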

How the data were processed

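Per the file headers the deposited raw table gives, for 46632 probes on 12 arrays, a summarised bead intensity (linear) plus a detection fraction between 0 and 1, and 1 minus that fraction served as detection p. The deposited series matrix holds the authors' log2 values of the same arrays, used as an alternative. BeadStudio 3.1.7 and lumi appear in the submitters' processing notes, and how those values were normalised is not stated there.

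Intensities were background-corrected, quantile-normalised and put on a log2 scale with limma 3.58.1 (neqc, offset 16) in R 4.3.3. The offset understates folds of dim genes. Probes were kept (11650) if both arrays of 3 or more of the 6 lines had a detection p under 0.01, and the brightest kept probe stood for a gene (7306 genes, 1709 with several). Symbols came from the platform annotation: 29976 probes had 1 symbol, 10 had several and 16646 were unnamed here.

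Genotypes were compared over line means, lines over arrays, by the moderated tests of limma, two-sided, with Benjamini-Hochberg adjustment over all genes at 0.05, and the procedure was tested on simulated data. Named were the 10 genes, Stat3, Krt8, Krt18, per pathway list the 3 largest differences of active line 3 and the 2 largest wild-type ranges, the 5 genes most like Kit and like Dusp6, and markers detected on at least 6 arrays. Undetected markers were named after their values were seen. The members and lists were chosen with earlier results of these data known. Replicate and line numbers were not used to pair samples in the main tests (2 of 15 and 1 of 3 pairs correlated over 0.1). Alternatives were other scaling, offset, filter and probe rules, blocks, and leaving out arrays or lines. The number of arrays limits precision.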

Additional observations from a re-analysis of the deposited data

How the results depend on the processing

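Median scaling lowered the counts of genes called to 1778 among the wild-type lines, 1149 between active lines 1 and 2 and 2202 for active line 3 (3393, 2070 and 3870 by quantile normalisation), and it turned the sign of Dusp4 between genotypes without active line 3 (0.24), of Egr1 between active lines 2 and 1 (0.18) and of Dusp8 in active line 3 (-0.063); none of these passed. With the line as a random block 1 gene passed between genotypes without active line 3. Leaving out 1 array at a time gave 2565 to 2898, 1310 to 1617 and 3108 to 3719 genes, with 4 to 5 of 9 members passing among wild-type lines and 0 to 2 between active lines 1 and 2 (0 without the second array of active line 1, 1 without that of line 2). Members lowest in wild-type line 2 numbered 8 to 9, and in active line 3 6 to 8. Leaving out 1 line gave 0 to 2 genes for all lines and 0 to 1 without active line 3, the most without wild-type line 2, and no member.

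Sign changes on leaving out 1 array or line touched differences that had not passed: genotype without active line 3, Dusp4 (-0.33 to 0.23) and Kit (-0.031 to 0.53); wild-type line 2 against 1, Phlda1 (-0.18 to 0.12); active line 2 against 1, Egr1 (-0.21 to 0.067), Etv4 (-0.094 to 0.15), Dusp4 (-0.052 to 0.48) and Dusp6 (-0.17 to 0.41); active line 3, Egfr (-0.28 to 0.10), Araf (-0.10 to 0.054) and, with no test, Egr1 (-0.20 to 0.58). The cause was not tested.

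The replicate number as a block gave 3292, 1988 and 3836 genes, and 5 and 3 members, so it changed no count by over 1.5 times; the line number as a block gave 0 genes in both genotype comparisons and 0.23 for Dusp4. Same-numbered arrays correlated at -0.26 to 0.31, with no common sign, so the numbers were not used as a pairing in the main tests. Whether some of the arrays share a batch was not tested. Of 1106 values of single genes under alternatives, 1030 counted as unchanged. Tested values had to keep direction and side of the threshold. Values without a test had to shift by less than the SD of the gene between arrays of a line, or between lines for the genotype.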

Other observations

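Keratin 19, a filament gene of simple and ductal epithelia, was detected in only some of the lines. Krt7 read 14.18 to 14.53 over the 6 lines, and Krt8 and Krt18 were higher in active line 3 than in active lines 1 and 2 by 0.35 and 0.27 (limma adjusted p 0.00400 and 0.0304). Krt19 was undetected in wild-type line 1 (4.59) and active line 1 (6.03), and read 6.29 and 8.41 in wild-type lines 2 and 3 and 9.25 and 9.84 in active lines 2 and 3. Active line 2 was at least 7.54-fold above active line 1 (limma adjusted p = 3.81e-08), and wild-type line 3 at least 4.61-fold above wild-type line 1 (adjusted p = 2.52e-09). Active line 3 held its highest line mean. The junction genes Cdh1 (8.33 to 9.09), Cldn3 (12.78 to 13.08), Cldn4 (12.71 to 13.30) and Cldn7 (11.58 to 12.08) were detected on all arrays, as were Pdgfra (6.85 to 7.35) and Kdr (7.33 to 7.66), growth factor receptors known from fibroblasts and endothelium.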
